A study of Mus musculus with 58 samples.

Results

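Somatosensory cortex of female mice that had received repeated closed head injuries followed by the p38 inhibitor SB239063 (5xCHI SB) was compared with cortex of female mice that had received sham procedures followed by vehicle (sham vehicle). The libraries were taken by their labels, as those titled as female, chronic, 5xCHI with SB (11 libraries) and those titled as female, chronic, sham with vehicle (9 libraries), together 20 of the 58 libraries of the series. Both groups were C57BL/6J mice, with no transgene named in the labels. Injured mice received 5 once-daily closed head injuries at an age of 2 to 4 months and SB239063 at 20 mg/kg by intraperitoneal injection 30 min after each. Sham vehicle mice received 5 once-daily sham procedures, each followed by the same injection of saline. Cortex was taken at a chronic time, for which the labels name days 18 and 34 without assigning them to single animals. Day could therefore not be a term in the model. The labels place the mice in 4 cohorts, F1 to F4, which hold 3, 2, 5 and 1 of the 5xCHI SB libraries against 2, 1, 4 and 2 of the sham vehicle libraries. Further groups are used below only where named, namely 12 female 5xCHI vehicle, 3 female sham SB, 8 male 5xCHI SB and 5 male sham vehicle libraries. The 2 female groups differ in both injury and drug, so their difference holds both together, and the contribution of each cannot be told apart from it alone.

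p38 MAPK is a stress-activated kinase that sits below the MAP3K and MAP2K enzymes and phosphorylates kinases such as Mapkapk2 and transcription factors such as Atf2, Mef2 and Elk1. In microglia and astrocytes it is known for controlling the production of inflammatory cytokines, and in neurons for taking part in synaptic plasticity. SB239063 blocks the alpha and beta forms of the kinase at its ATP site, which changes activity of the enzyme and not, directly, the level of its mRNA.

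RNA was polyadenylated RNA from bulk tissue, so fewer cells of a type and less RNA per cell cannot be told apart. The deposited table held raw counts for 9636 genes, and its smallest count was 101. The totals over these genes were 28316280 to 46357946 in 5xCHI SB and 30605694 to 49158277 in sham vehicle libraries. Levels below are CPM values, counts scaled to library size with TMM factors, and compare libraries for 1 gene but not genes with each other. All markers used for excitatory and inhibitory neurons, astrocytes, oligodendrocytes, microglia and endothelium were measured, and both groups overlapped in the summed level of each. Of the neighbouring-tissue markers, Drd1, Drd2, Spink8 and Tcf7l2 and the choroid plexus and blood markers were not in the table used here.

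A few libraries stood apart. The summed CPM of Mbp, Mog and Mobp, which are made by mature oligodendrocytes, was 1705.9, 3819 and 4565 (lowest, median, highest) in 5xCHI SB and 2952.9, 4117 and 12833.6 in sham vehicle libraries. The highest value belonged to sham vehicle replicate 1, which is the only sham vehicle library of cohort F2. Libraries also differed in how levels depended on transcript length, measured as the slope of a library's log2 CPM, relative to the mean of all libraries, per doubling of length. This slope ran from -0.115 to 0.0819 with a median of 0.0577 in 5xCHI SB, and from -0.218 to 0.0862 with a median of 0.0323 in sham vehicle libraries. Its low end was held by sham vehicle replicates 1, 7 and 3 and by 5xCHI SB replicate 8, the only 5xCHI SB library of cohort F4. On the first 4 principal components, 4 of the 20 libraries lay more than 3 median absolute deviations from the median (5xCHI SB replicates 8 and 10, sham vehicle replicates 1 and 7). Results are therefore also given without these 4 libraries, a choice made after seeing the data.

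**Figure D1:**
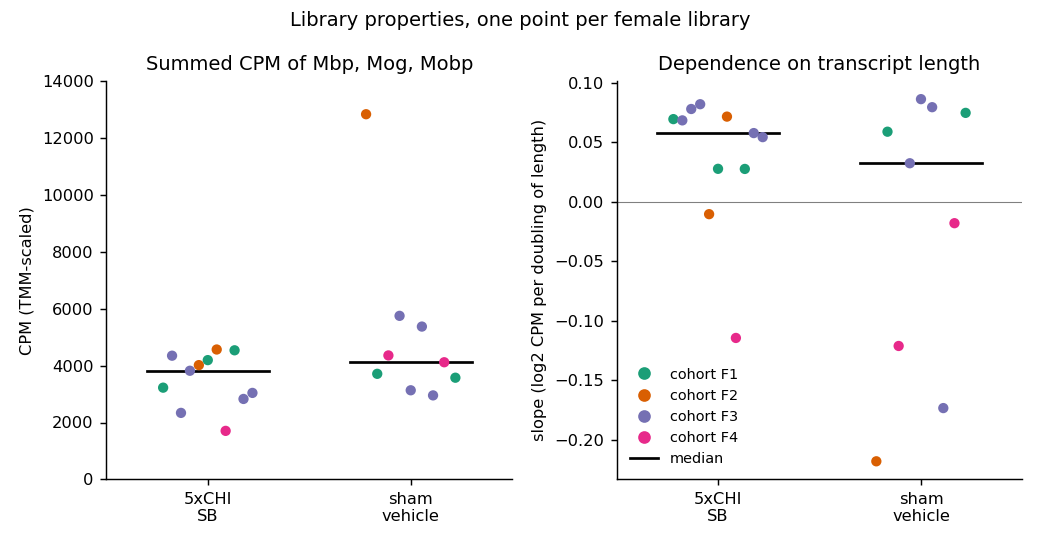
Summed CPM of the oligodendrocyte markers Mbp, Mog and Mobp (left) and slope of log2 CPM on log2 transcript length (right), 1 point per library, coloured by cohort, with the group median as a line. Sham vehicle replicate 1 (cohort F2) had the highest marker sum, 12833.6 CPM, and the lowest slope, -0.218.

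A difference between the 2 groups passed the test for 7 genes (edgeR quasi-likelihood test with cohort as a term, Benjamini-Hochberg adjusted p under 0.05). These 7 were 0.0726% of the 9636 genes. The 6 that were higher in 5xCHI SB cortex (0.0623%) were Mdga1, Pak6, Rin1, Pcdh8, Cpne4 and Atp2b4, and the gene that was lower (0.0104%) was Dbndd2. Most encode neuronal membrane or signalling proteins. Their fold changes were between 1.27 and 1.56 upward and 0.763 for Dbndd2. At an unadjusted p under 0.05 there were 1710 genes (17.7%), 817 of them higher (8.48%) and 893 lower (9.27%). None of the 9636 genes had CPM values that did not overlap between the groups (0%).

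Mdga1 and Pcdh8 had the 2 largest upward fold changes among the genes that passed. Their upstream sequences are shown because both belong to lists described below, of upper-layer genes and of genes that neuronal activity switches on. Each line holds the 250 bases before the RefSeq start of the gene, read 5′ to 3′ on the gene's strand (RefSeq, GRCm38.p6, minus strand for both genes). For Mdga1 this is chr17:29887883-29888132, and for Pcdh8 it is chr14:79771313-79771562. Capitals mark matches on either strand to 4 motifs, the GC box GGGCGG, the TATA box TATAAA, the E box CACGTG and the cAMP response element TGACGTCA.
Mdga1: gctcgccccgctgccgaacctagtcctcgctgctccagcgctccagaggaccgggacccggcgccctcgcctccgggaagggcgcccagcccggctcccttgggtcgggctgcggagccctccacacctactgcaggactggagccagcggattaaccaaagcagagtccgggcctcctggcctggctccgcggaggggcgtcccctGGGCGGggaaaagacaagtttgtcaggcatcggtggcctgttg
Pcdh8: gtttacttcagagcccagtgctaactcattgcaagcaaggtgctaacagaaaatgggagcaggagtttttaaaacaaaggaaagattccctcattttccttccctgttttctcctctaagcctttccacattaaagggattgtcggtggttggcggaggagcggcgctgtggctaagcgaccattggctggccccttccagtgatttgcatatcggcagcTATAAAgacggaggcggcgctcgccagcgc
The Mdga1 window held a GC box, which 59% of 10227 windows from 7764 tested genes also hold, and the Pcdh8 window held a TATA box, found in 5.81% of them. Neither held the E box (8.56% of windows) or the cAMP response element (2.67% of windows), and no motif contains another. RefSeq windows were matched for 6 of the 7 genes.

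Mdga1 encodes a membrane-anchored protein that binds neuroligin 2 and limits inhibitory synapses, and it marks neurons of the upper cortical layers. Its level was 15.0, 19.1 and 34.4 CPM (lowest, median, highest) in 5xCHI SB and 9.28, 11.8 and 27.7 CPM in sham vehicle libraries. All 11 5xCHI SB libraries lay above the sham vehicle median, and in both groups cohort F1 held the highest values. The log2 fold change was 0.63 ± 0.12 (SE, adjusted p = 0.0247). Within cohorts F1, F2, F3 and F4 the difference was 0.33, 0.86, 0.67 and 0.83 on the log2 scale.

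Pcdh8 encodes a protocadherin, also called arcadlin, that neuronal activity induces and that draws N-cadherin away from the synapse. Levels were 24.7, 30.6 and 46.5 CPM in 5xCHI SB and 15.5, 21.6 and 29.8 CPM in sham vehicle libraries. The groups overlapped only between 24.7 and 29.8 CPM, and 7 of the 11 5xCHI SB libraries exceeded every sham vehicle library. It was higher by 0.64 ± 0.13 on the log2 scale (SE, adjusted p = 0.0257), with 0.50, 0.76, 0.79 and 0.42 in the cohorts from F1 to F4.

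Pak6 encodes a p21-activated kinase found in neurons. It measured 90.3, 110.0 and 137 CPM in 5xCHI SB and 72.5, 91.4 and 99.6 CPM in sham vehicle libraries. In 9 of 11 cases the 5xCHI SB library lay above the highest sham vehicle library, and the 2 that did not were the cohort F2 libraries. Its log2 fold change was 0.35 ± 0.068 (SE, adjusted p = 0.0247).

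Rin1 encodes a Ras effector that activates Rab5 and is enriched in forebrain neurons. CPM values were 52.3, 67.3 and 89.7 in 5xCHI SB and 33.7, 55.6 and 81.9 in sham vehicle libraries. The ranges overlapped widely, with cohort F1 high and cohort F2 low in both groups. The log2 fold change with cohort accounted for was 0.36 ± 0.073 (SE, adjusted p = 0.0257).

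Cpne4, a copine that binds membrane lipids when calcium rises, measured 39.8, 47.7 and 71.0 CPM in 5xCHI SB and 17.8, 35.7 and 45.8 CPM in sham vehicle libraries. It was higher by 0.60 ± 0.13 on the log2 scale (SE, adjusted p = 0.0277), with all 11 5xCHI SB libraries above the sham vehicle median. Atp2b4, a plasma membrane pump that removes calcium from the cell, measured 273, 339 and 428 CPM in 5xCHI SB and 136, 270.2 and 316 CPM in sham vehicle libraries, a log2 fold change of 0.53 ± 0.11 (SE, adjusted p = 0.0385). The lowest library of all 20 was sham vehicle replicate 1 for both genes, and also for Mdga1, Pcdh8, Pak6 and Rin1. The differences of Cpne4 and Atp2b4 in cohort F2, 1.18 and 1.15, rested on that library as its only sham vehicle member. In the other cohorts they were 0.25 to 0.68 for Cpne4 and 0.16 to 0.76 for Atp2b4. The F2 differences given above for Mdga1 and Pcdh8 rested on the same library.

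Dbndd2, a dysbindin-domain protein that binds casein kinase 1, was the gene that fell. It measured 61.3, 68.3 and 90.6 CPM in 5xCHI SB and 69.0, 86.5 and 149 CPM in sham vehicle libraries. The highest value was that of sham vehicle replicate 1, and 10 of 11 5xCHI SB libraries lay below the sham vehicle median. The log2 fold change was -0.39 ± 0.082 (SE, adjusted p = 0.0277). Within cohorts it was 0.02 in F1, against -0.75, -0.49 and -0.46 in F2, F3 and F4.

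**Figure D2:**
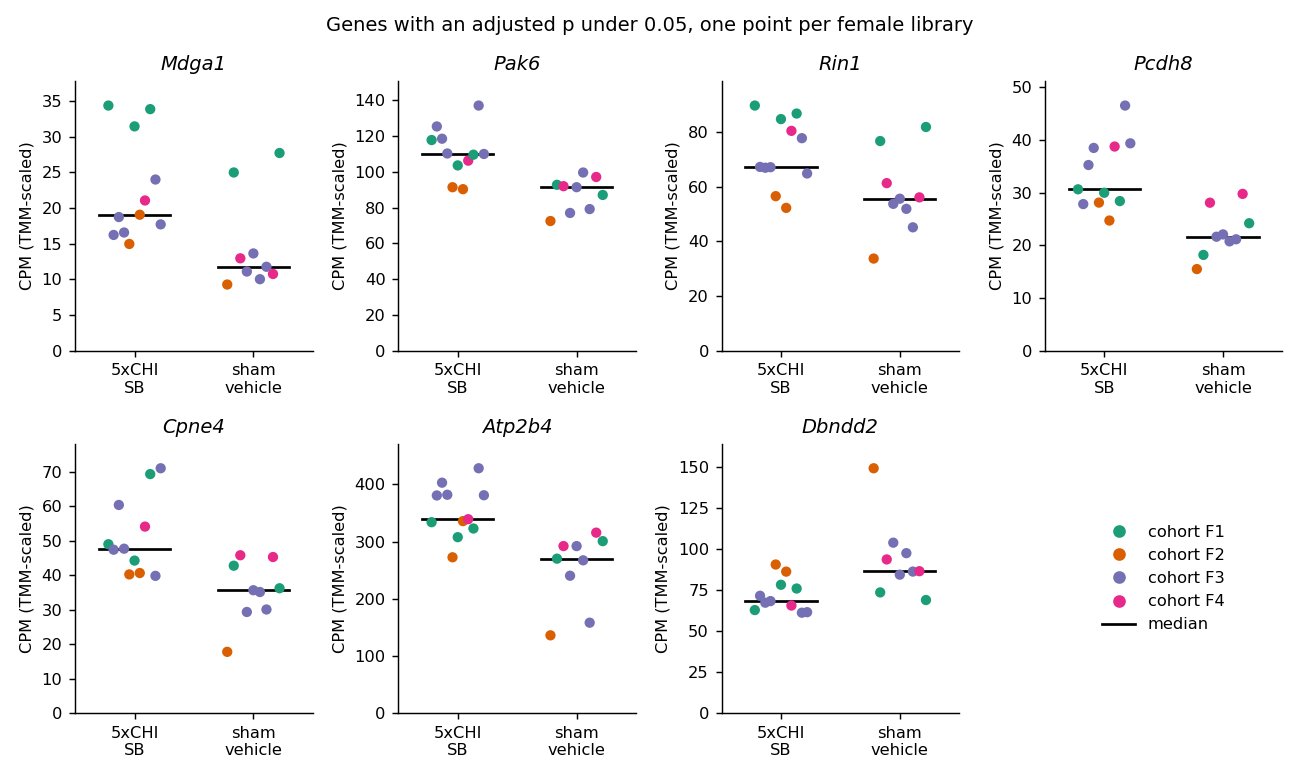
CPM of the 7 genes with an adjusted p under 0.05, 1 point per library, coloured by cohort, with the group median as a line and each axis starting at 0. Both groups overlap for every gene, for example at 24.7 to 29.8 CPM for Pcdh8, and cohort F1 stands highest for Mdga1 in both groups.

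Which genes passed depended on single libraries. The count of genes past the threshold was 0 when 5xCHI SB replicate 8 or 10 or sham vehicle replicate 1, 4 or 7 was left out, and 33 when sham vehicle replicate 2 was left out. Over the 20 fits that each left out 1 library, the log2 fold changes moved less, between 0.58 and 0.67 for Mdga1, 0.60 and 0.68 for Pcdh8, 0.32 and 0.37 for Pak6, 0.31 and 0.39 for Rin1, 0.52 and 0.64 for Cpne4, 0.45 and 0.56 for Atp2b4 and -0.44 and -0.32 for Dbndd2. Without the 4 libraries that stood apart, 0 genes passed by edgeR and 715 had an unadjusted p under 0.05, while the fold changes of the 7 genes kept their direction at 0.49 for Mdga1, 0.54 for Pcdh8, 0.29 for Pak6, 0.20 for Rin1, 0.53 for Cpne4, 0.34 for Atp2b4 and -0.27 for Dbndd2.

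Further genes were named for the smallest p among those that did not pass. Those with higher estimates were Fbxo10, a ubiquitin ligase subunit (log2 fold change 0.31), Ddn, the dendritic protein dendrin (0.38), Rps6ka2, a ribosomal S6 kinase (0.32), Crtc1, a coactivator of CREB (0.27), Rapgefl1 (0.25) and Shank2, a scaffold of the postsynaptic density (0.33), each at an adjusted p of 0.0651 by edgeR. Sham vehicle replicate 1 was the lowest of the 20 libraries for each of these higher genes too. Those with lower estimates included Kiz, a centrosome protein (-0.25, adjusted p = 0.0523), Rap1a, a small GTPase (-0.30), Slu7, a splicing factor (-0.19), Nell1, a secreted protein (-0.38), and Rida, a deaminase of reactive intermediates (-0.40), the last 4 at an adjusted p of 0.0651. Mcee (-0.32), Uchl5, a deubiquitinase bound to the proteasome (-0.34), and Fnta, the farnesyltransferase alpha subunit (-0.22), shared that adjusted p, and Cox7a2 (-0.32) and Cnih4 (-0.19) had 0.0667 and 0.0699. Kiz measured 11.1, 13.4 and 16.7 CPM in 5xCHI SB and 13.2, 15.7 and 19.2 CPM in sham vehicle libraries, with 10 of 11 5xCHI SB libraries below the sham vehicle median. Rap1a measured 30.4, 43.4 and 50.9 CPM in 5xCHI SB and 44.8, 49.9 and 59.8 CPM in sham vehicle libraries, and 7 5xCHI SB libraries lay below all sham vehicle libraries.

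Pvalb, the calcium-binding protein of fast-spiking interneurons, did not pass either (log2 fold change -0.47 ± 0.11, adjusted p = 0.0651). It measured 46.4, 66.6 and 84.5 CPM in 5xCHI SB and 65.6, 83.3 and 156 CPM in sham vehicle libraries. The highest value was again 1 sham vehicle library, and without the 4 libraries the estimate was -0.18. An exact permutation of the 2 labels within cohorts, over 11340 arrangements and two-sided, gave p between 8.8e-05, the smallest it can give, and 0.0022 for all 24 genes. It used the same libraries that ranked the genes, so it adds no separate evidence.

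**Figure D3:**
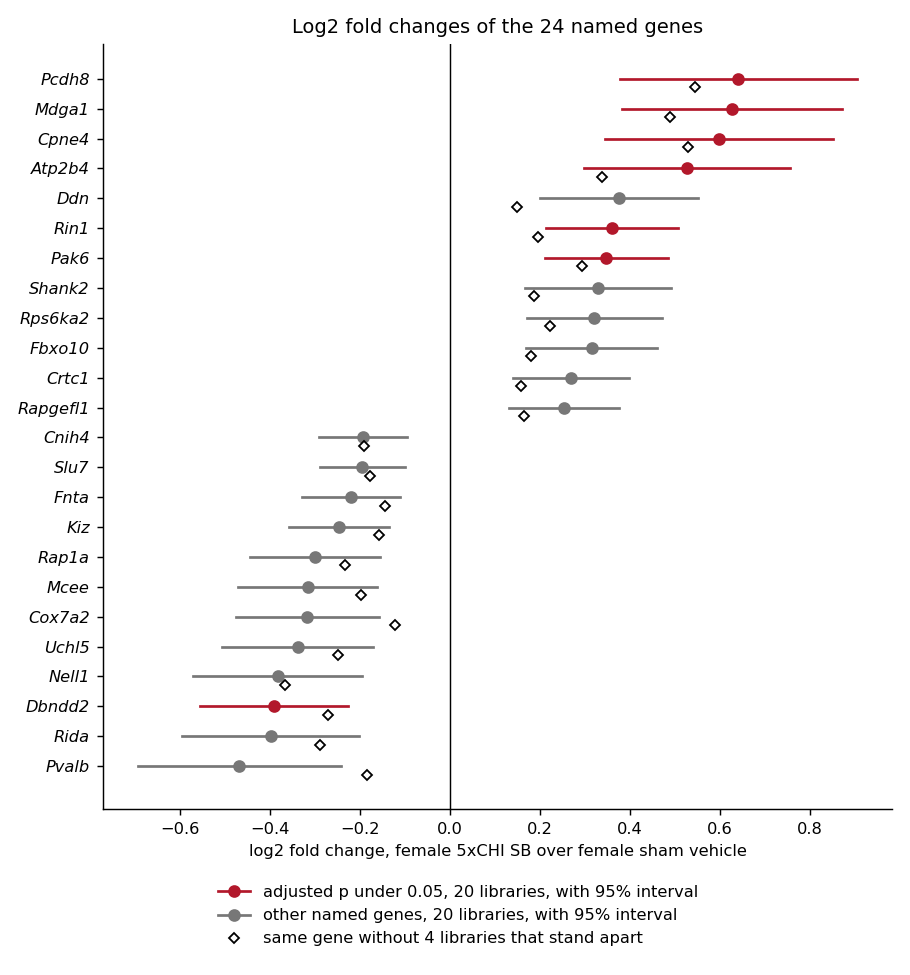
Log2 fold change of the 24 named genes in female 5xCHI SB over female sham vehicle cortex, with 95% intervals, in red where the adjusted p was under 0.05, and as open diamonds after leaving out 4 libraries. The diamonds lie on the same side of 0 as the circles for all 24 genes and nearer to 0 for most, for example 0.20 against 0.36 for Rin1.

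Levels of the 7 genes in the other female groups are given side by side, since these comparisons share libraries with the one above. Mdga1 averaged 22.5 ± 7.31 CPM in 5xCHI SB (SD, n = 11), 18.2 ± 7.67 in 5xCHI vehicle (n = 12), 28.3 ± 11.2 in sham SB (n = 3) and 14.7 ± 6.78 in sham vehicle cortex (n = 9). For Pcdh8 the means in the same order were 33.5 ± 6.67, 32.1 ± 8.05, 28.1 ± 3.65 and 22.4 ± 4.48 CPM. Sham vehicle cortex had the lowest mean for both genes. Set against sham vehicle, Pcdh8 differed by 0.57 ± 0.13 after injury with vehicle and by 0.56 ± 0.20 after sham with SB (log2, SE), and injured SB against injured vehicle cortex differed by 0.07 ± 0.12. For Mdga1 the 3 differences were 0.31 ± 0.12, 0.58 ± 0.18 and 0.32 ± 0.11. Atp2b4 averaged 353 ± 45.6 CPM in 5xCHI SB, 304.3 ± 52.6 in 5xCHI vehicle, 312 ± 23.1 in sham SB and 253 ± 63.7 in sham vehicle cortex, and Dbndd2 averaged 71.8 ± 9.93, 85.6 ± 13.2, 77.1 ± 9.44 and 93.8 ± 23.5 CPM. The sham vehicle mean was the lowest of the 4 for Atp2b4 and the highest for Dbndd2. Pak6 averaged 111 ± 13.7 CPM in 5xCHI SB, 98.3 ± 16.6 in 5xCHI vehicle, 104 ± 19.2 in sham SB and 87.6 ± 9.40 in sham vehicle cortex. For Rin1 the means in that order were 72.3 ± 12.5, 64.1 ± 13.8, 80.1 ± 21.1 and 57.4 ± 14.8 CPM, and for Cpne4 they were 51.3 ± 11.2, 45.4 ± 10.0, 51.0 ± 7.16 and 35.4 ± 8.91 CPM. Sham vehicle cortex had the lowest mean for these 3 genes too, and for Rin1 and Mdga1 the sham SB mean was the highest. These means are not adjusted for cohort, and the sham SB libraries came from cohorts F1 and F2 only. With cohort in the model, sham SB over sham vehicle gave 0.58 ± 0.18 for Mdga1 and 0.36 ± 0.11 for Rin1 (log2, SE). For 5xCHI SB over sham vehicle the same model gave 0.63 ± 0.12 and 0.36 ± 0.073.

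The gene lists that follow are described by counts and medians beside those of all genes, of which 4725 had a log2 fold change above 0 and 4911 below 0, with a median of -0.003. Apart from Mdga1 and Pcdh8, no member of the lists described passed at an adjusted p of 0.05 in the edgeR fit used above. The p-values printed for members in these paragraphs are unadjusted edgeR values unless said otherwise, and 17.7% of all genes had one under 0.05.

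Myelin and mature oligodendrocyte genes had the lowest median of the lists described, -0.41 over 22 measured genes. All 22 estimates were below 0, and 19 had an unadjusted p under 0.05, against 9.27% of all genes lower at that threshold. Mobp, a protein that compacts myelin, measured 444, 1072 and 1394 CPM in 5xCHI SB and 865, 1241 and 3350 CPM in sham vehicle libraries (log2 fold change -0.65 ± 0.19, p = 0.0012). The top value was sham vehicle replicate 1, the lowest was 5xCHI SB replicate 8, and the other libraries overlapped. Car2, the carbonic anhydrase of oligodendrocytes, had -0.31 ± 0.096 (p = 0.0024). Enpp2 had the lowest estimate of all 9636 genes, -0.9997 ± 0.31, with 223, 306 and 363 CPM in 5xCHI SB and 275, 345 and 2841 CPM in sham vehicle libraries, where the last value was sham vehicle replicate 4. Without that library its log2 fold change was -0.21 (p = 0.33). Without sham vehicle replicate 1 the list's median was -0.29 and 6 genes had an unadjusted p under 0.05. Its median was -0.16 without the 4 libraries, with 21 of 22 still below 0 and 1 gene at that threshold. That gene was Enpp2 (-1.18, p = 0.0027), whose high library, sham vehicle replicate 4, was not among the 4 left out. Dbndd2 is no member of the list, and like Mobp, Car2 and the summed oligodendrocyte markers it was highest in sham vehicle replicate 1. The part of that library's oligodendrocyte content in the Dbndd2 result was not tested beyond the fit without it, which gave -0.32.

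The lineage list, which holds precursor and early oligodendrocyte genes, had a median of -0.04 over 12 genes, 7 of them below 0. Bcas1, which marks newly formed myelinating oligodendrocytes, had 127, 211 and 319 CPM in 5xCHI SB and 211, 261 and 757 CPM in sham vehicle libraries (-0.55 ± 0.16, p = 0.0013). The lineage factors Olig2 and Olig1 had -0.27 ± 0.12 and -0.17 ± 0.13. Pdgfra, the growth factor receptor of precursors, had 0.14 ± 0.096 (p = 0.16). All but Pdgfra were highest among sham vehicle libraries in replicate 1. Without that library the estimates were -0.39 for Bcas1, -0.13 for Olig2, 0.03 for Olig1 and 0.12 for Pdgfra, and the list's median ran from -0.12 without sham vehicle replicate 7 to 0.018 without sham vehicle replicate 6.

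Genes of the upper cortical layers had a median of 0.12 over 15 genes, with 12 above 0 and 6 higher at an unadjusted p under 0.05, against 8.48% of all genes. Lhx2, a LIM-homeodomain factor, measured 53.1, 59.9 and 74.0 CPM in 5xCHI SB and 45.1, 49.3 and 56.4 CPM in sham vehicle libraries, with 8 of 11 5xCHI SB libraries above all sham vehicle libraries (0.28 ± 0.070, adjusted p = 0.0701). Otof, otoferlin, had the highest estimate of all genes, 0.77 ± 0.20 (adjusted p = 0.0737), with 16.3, 23.3 and 49.5 CPM in 5xCHI SB and 3.78, 16.5 and 31.2 CPM in sham vehicle libraries. Wfs1, an endoplasmic reticulum protein that also marks hippocampal field CA1, had 0.37 ± 0.12 (p = 0.0045). The list's median was 0.06 without sham vehicle replicate 1, 0.21 without sham vehicle replicate 5 and 0.004 without the 4 libraries, while Mdga1, Lhx2 and Otof kept 0.49, 0.23 and 0.62. The deep-layer list had a median of -0.008, and 9 of its 15 genes were below 0. This median ran from -0.050 without 5xCHI SB replicate 9 to 0.085 without 5xCHI SB replicate 8. Pcp4, a calmodulin-binding protein of deep-layer neurons, measured 6.41, 10.6 and 14.6 CPM in 5xCHI SB and 10.6, 15.1 and 20.7 CPM in sham vehicle libraries (-0.55 ± 0.16, p = 0.00094), with all 11 5xCHI SB libraries below the sham vehicle median and -0.53 without the 4 libraries. Sulf1, a heparan sulfate sulfatase, had -0.75 ± 0.30, but sham vehicle replicate 4 alone reached 109 CPM against at most 22.5 CPM in the other sham vehicle libraries, and without it the estimate was -0.08 (p = 0.72). Cplx3, a complexin of subplate neurons, had -0.23 ± 0.10, and Fezf2, the factor that specifies corticospinal neurons, had 0.20 ± 0.14. Leaving out sham vehicle replicate 1 gave -0.11 (p = 0.27) for Cplx3 and 0.34 (p = 0.017) for Fezf2.

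Broad neuron lists had medians nearer to 0. The excitatory list had a median of 0.08, with 11 of 14 genes above 0, led by the postsynaptic scaffold Dlg4 (0.19 ± 0.061, p = 0.0034) and the plasticity kinase Camk2a (0.21 ± 0.086, p = 0.019). The inhibitory list had a median of 0.08, with 13 of 18 above 0. Reln, the secreted protein reelin, had 0.37 ± 0.12 (p = 0.0030) and Adarb2 0.26 ± 0.087 (p = 0.0048), on the opposite side of 0 from Pvalb. Summed inhibitory markers (Gad1, Gad2, Slc32a1, Sst) were 710, 798 and 902 CPM in 5xCHI SB and 643, 765 and 940 CPM in sham vehicle libraries. Fitted without the 4 libraries, Dlg4 had 0.08, Reln 0.16 and Adarb2 0.19, and Camk2a had an estimate of 0.00. Ionotropic and metabotropic glutamate receptor genes were above 0 in 19 of 23 cases (median 0.10), 6 of them at an unadjusted p under 0.05. They included Grid1 (0.18 ± 0.052, p = 0.0014), the kainate receptor subunit Grik5 (0.21 ± 0.072) and the obligatory NMDA receptor subunit Grin1 (0.13 ± 0.056). Potassium channel genes were above 0 in 21 of 30 cases (median 0.04), led by the leak channel Kcnk9 (0.29 ± 0.10, p = 0.0063), Kcnh3 (0.21 ± 0.073) and Kcnd3 (0.24 ± 0.087). The medians of these 2 lists without the 4 libraries were 0.05 and -0.006, and the potassium channel median was -0.001 without sham vehicle replicate 1 and 0.080 without sham vehicle replicate 5.

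The drug's own pathway gave small estimates. Among 16 measured genes of the kinase cascade, 10 were above 0 and the median was 0.03. Taok2, an upstream kinase, measured 188, 202 and 286 CPM in 5xCHI SB and 155, 192 and 224 CPM in sham vehicle libraries (0.14 ± 0.065, p = 0.034), and Map3k4 had 0.098 ± 0.048 (p = 0.048). Map2k4, a kinase that phosphorylates p38 and JNK, had -0.094 ± 0.053, and Taok3 had 0.076 ± 0.051. Of the 27 substrates and MAPK phosphatases, 19 were above 0 (median 0.04), 8 of them at an unadjusted p under 0.05. Mef2d, a transcription factor that p38 phosphorylates, had 0.17 ± 0.057 (p = 0.0041), Mknk2, a kinase of the translation factor eIF4E, 0.22 ± 0.076 (p = 0.0063), Dusp8, a MAPK phosphatase, 0.13 ± 0.051, and Elk1 0.16 ± 0.065. Without the 4 libraries Mknk2 had 0.20 (p = 0.016), whereas Mef2d and Elk1 both had 0.04. The cascade's median was 0.012 without sham vehicle replicate 1, and that of the substrates and phosphatases was 0.014 without sham vehicle replicate 4.

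Respiratory chain and ribosomal protein genes lay below 0 nearly throughout. All 47 measured oxidative phosphorylation genes had estimates below 0 (median -0.17), 26 of them at an unadjusted p under 0.05. Cox7b, a subunit of complex IV, measured 60.1, 78.6 and 93.5 CPM in 5xCHI SB and 85.0, 91.3 and 131 CPM in sham vehicle libraries, with 9 of 11 5xCHI SB libraries below all sham vehicle libraries (-0.30 ± 0.077, adjusted p = 0.0737). Its fellow complex IV subunit Cox7a2 measured 49.2, 69.9 and 81.1 CPM in 5xCHI SB and 71.4, 81.6 and 113 CPM in sham vehicle libraries. Ndufa5 of complex I had -0.33 ± 0.089, and Atp5pb of ATP synthase -0.24 ± 0.069. Of 76 cytosolic ribosomal protein genes, 74 were below 0 (median -0.13), 29 at an unadjusted p under 0.05, with Rpl30 at -0.30 ± 0.089, Rps3a1 at -0.23 ± 0.070, Rps6 at -0.20 ± 0.065 and Rpl7 at -0.21 ± 0.070. The longest transcripts of these genes are short, with medians of 1118 and 1100 bases against 3726 over all genes. Over the 9549 genes with a known length, the log2 fold change was higher for longer transcripts (Spearman's rho 0.36, a description only, as the genes share the same libraries). Its median was -0.06 for genes in the lowest quartile of length (up to 2526 bases) and 0.04 for those in the highest (from 5224 bases). With each library's length slope as a further term, an alternative added after seeing the data, the medians were -0.057 for oxidative phosphorylation and -0.025 for ribosomal proteins. Leaving out sham vehicle replicate 7 alone gave -0.110 and -0.067, and leaving out sham vehicle replicate 1 gave -0.111 and -0.079. They were -0.032 and 0.010 without the 4 libraries, and 40 of 76 ribosomal protein genes were then above 0. The glutamate receptor, potassium channel and extracellular matrix lists hold long transcripts, with median lengths of 5546, 5598.5 and 5915 bases. Their median log2 fold changes of 0.10, 0.04 and 0.09 were 0.046, -0.003 and 0.028 with the length slope as a term. The upper-layer list, at 6390 bases, had 0.096 with that term against 0.12.

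Chaperone genes of the heat shock and unfolded protein response were below 0 in 32 of 39 cases (median -0.08), 12 of them at an unadjusted p under 0.05. Hspe1, the mitochondrial co-chaperonin, measured 26.2, 29.1 and 37.6 CPM in 5xCHI SB and 30.1, 36.3 and 45.1 CPM in sham vehicle libraries (-0.28 ± 0.076, p = 0.00054). Hsp90aa1 had -0.22 ± 0.077, Dnajb11 -0.16 ± 0.061 and Hspa8 -0.13 ± 0.052. This median was -0.09 without the 4 libraries and -0.08 with the length slope as a term, so neither brought it nearer to 0. Without the 4 libraries 6 genes were lower at an unadjusted p under 0.05. Leaving out single libraries gave medians from -0.113 without sham vehicle replicate 2 to -0.068 without sham vehicle replicate 5.

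Glial and immune lists were measured in part. Homeostatic microglia genes had a median of 0.05 over 14 genes, with the receptor Csf1r at 0.17 ± 0.066 (p = 0.013), the surface protein Tmem119 at 0.17 ± 0.080 (p = 0.034), the transcription factor Sall1 at 0.13 ± 0.081 and the protease inhibitor Cst3 at -0.17 ± 0.073 (p = 0.022). Without sham vehicle replicate 1 the median was -0.001 and Cst3 had -0.085 (p = 0.21), and without sham vehicle replicate 5 the median was 0.099. Without the 4 libraries Csf1r had 0.06 and the median was -0.009. The disease-associated microglia and lysosome list had a median of -0.14 over 13 genes, of which 10 were below 0 and 8 at an unadjusted p under 0.05. Fth1, the ferritin heavy chain, measured 1267, 1461 and 1689 CPM in 5xCHI SB and 1274, 1672 and 3227 CPM in sham vehicle libraries (-0.27 ± 0.083, p = 0.0019), again highest in sham vehicle replicate 1. Fth1 is also abundant in oligodendrocytes. The lysosomal genes Lamp1 (-0.14 ± 0.047), Ctsb (-0.12 ± 0.045) and Ctsz (-0.20 ± 0.074) had estimates below 0. Without the 4 libraries the list's median was -0.09 and 3 genes had an unadjusted p under 0.05, with Ctsb at -0.13 (p = 0.012), Fth1 at -0.09, Lamp1 at -0.08 and Ctsz at -0.06. Leaving out sham vehicle replicate 1 alone gave -0.15 for Fth1 and -0.12 for Ctsz. None of the 19 astrocyte identity genes had an unadjusted p under 0.05 (median -0.007), with Aldoc at -0.077 ± 0.050, Fgfr3 at 0.10 ± 0.068, Slc7a10 at -0.14 ± 0.098 and Ntsr2 at -0.094 ± 0.070. Nor did any of the 6 measured reactive astrocyte genes, of which Vim had 0.14 ± 0.091, Stat3 0.060 ± 0.054, Cp 0.12 ± 0.12 and complement C4b 0.098 ± 0.17. Gfap, the classical marker of reactive astrocytes, had 0.02 ± 0.12, with 168 ± 35.9 CPM in 5xCHI SB (SD, n = 11) and 167 ± 45.4 CPM in sham vehicle cortex (n = 9).

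Structural and stress-related lists were mixed. Of 32 axonal cytoskeleton and injury marker genes, 17 were below 0 (median -0.010). The neurofilament genes Nefh (-0.34 ± 0.099, p = 0.0012) and Nefm (-0.29 ± 0.11, p = 0.0086), the calcium-binding protein S100b (-0.34 ± 0.10, p = 0.0017) and the microtubule regulator Stmn1 (-0.20 ± 0.062, p = 0.0025) led it, and without the 4 libraries they had -0.28, -0.23, -0.23 and -0.14. Of 26 extracellular matrix genes, 18 were above 0 (median 0.09), led by fibronectin Fn1 with 42.3, 94.5 and 140 CPM in 5xCHI SB and 28.0, 66.1 and 106 CPM in sham vehicle libraries (0.43 ± 0.12, p = 0.0010). Timp2 had 0.23 ± 0.078, the laminin Lamb2 0.22 ± 0.079 and the perineuronal net proteoglycan Ncan 0.17 ± 0.062. Without the 4 libraries Fn1 and Lamb2 both had 0.23, and the list's median was 0.007. Glucocorticoid-response genes were below 0 in 14 of 21 cases (median -0.06), led by the kinase Sgk1 (-0.56 ± 0.19, p = 0.0050), Tsc22d3 (-0.23 ± 0.098), Arrdc2 (-0.37 ± 0.16) and Nfkbia (-0.21 ± 0.099), and 6 of the 21 had an unadjusted p under 0.05. Without sham vehicle replicate 1 the median was -0.014 and 1 gene had such a p, with Sgk1 at -0.36 (p = 0.067), Tsc22d3 at -0.11, Arrdc2 at -0.19 and Nfkbia at -0.09. The median was -0.093 without sham vehicle replicate 5, and without the 4 libraries it was -0.009 with 11 of 21 below 0. The remaining lists had medians between -0.08 (striatum) and 0.10 (mural cells), apart from the 2 measured meningeal and fibroblast genes at 0.47. Iron and antioxidant genes were below 0 in 23 of 29 cases (median -0.08).

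**Figure D4:**
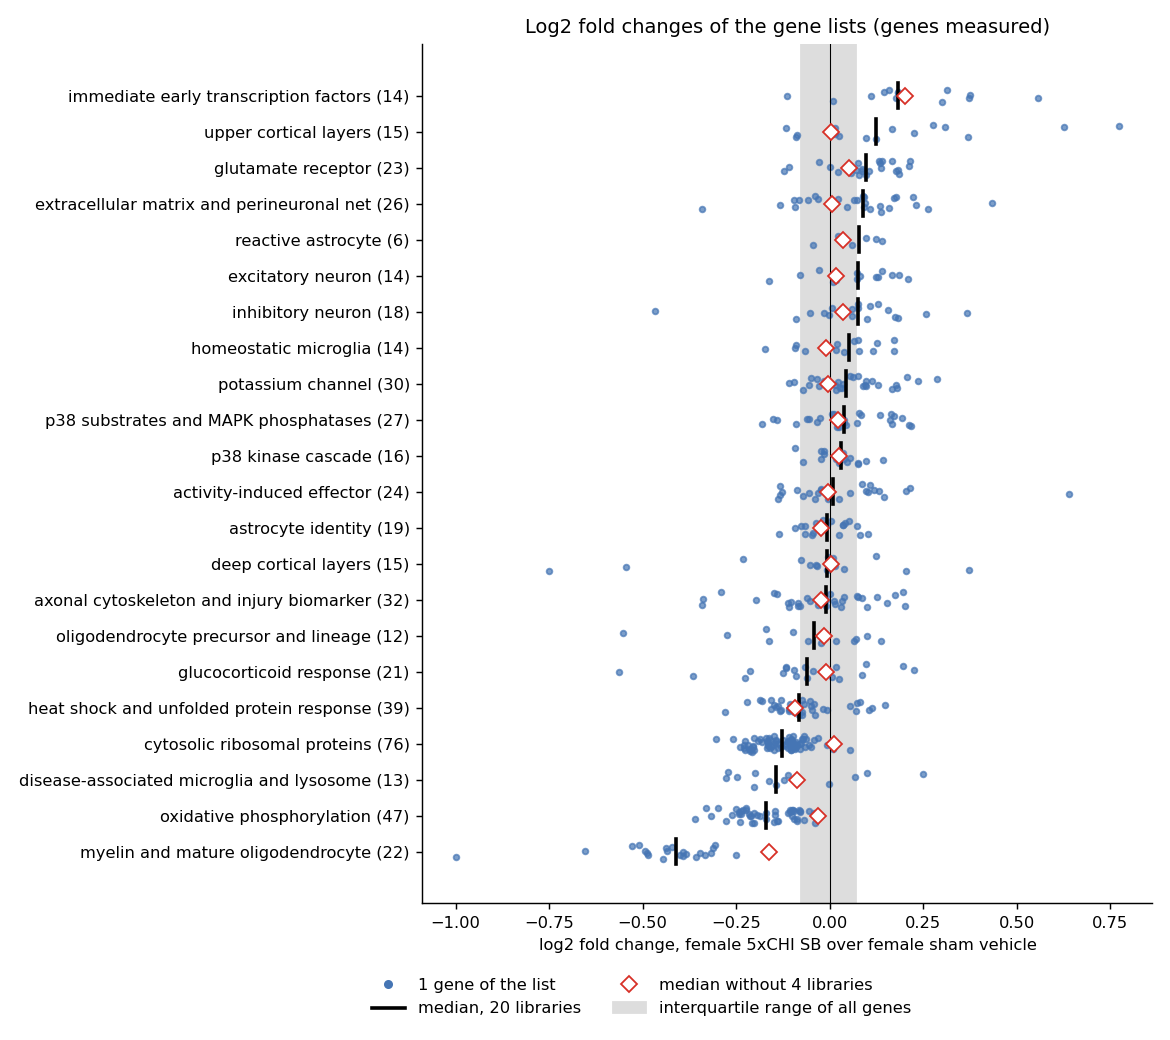
Log2 fold change (female 5xCHI SB over female sham vehicle) of each gene in the described lists, with the number of measured genes in brackets, the median over 20 libraries as a black bar, the median without 4 libraries as a red diamond, and the interquartile range of all genes in grey. Myelin genes lie farthest below 0 (median -0.41 and -0.16), and the immediate early list keeps its median above 0 (0.18 and 0.20).

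Immediate early transcription factors, the genes that neurons switch on within minutes of activity, had a median of 0.18, with 13 of 14 genes above 0 and 2 at an unadjusted p under 0.05. Srf, the factor that drives many of the others, measured 30.6, 36.3 and 52.4 CPM in 5xCHI SB and 24.8, 29.2 and 36.6 CPM in sham vehicle libraries, with all 11 5xCHI SB libraries above the sham vehicle median (0.30 ± 0.089, p = 0.0013). Egr4 measured 12.1, 24.9 and 52.5 CPM in 5xCHI SB and 10.4, 16.6 and 32.9 CPM in sham vehicle libraries (0.56 ± 0.22, p = 0.013). Egr3 had 0.18 ± 0.093 and Jun 0.15 ± 0.094. Leaving out the 4 libraries gave a median of 0.20 with 13 of 14 above 0. Leaving out single libraries gave medians from 0.12 without 5xCHI SB replicate 10 to 0.27 without 5xCHI SB replicate 4. The activity-induced effector list, to which Pcdh8 belongs, was split evenly, 12 above and 12 below 0 (median 0.01, from -0.020 without sham vehicle replicate 2 to 0.070 without 5xCHI SB replicate 8), with the axonal receptor component Lingo1 at 0.21 ± 0.082 (p = 0.012), the mTOR activator Rheb at -0.14 ± 0.061 (p = 0.026) and the kinase Mapk4 at 0.15 ± 0.074.

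Whether the contrast differed between females and males was tested as the female difference minus the male difference. No gene passed at an adjusted p of 0.05 by edgeR (0%, smallest adjusted p 0.200), and 852 genes had an unadjusted p under 0.05 (8.84%). DESeq2 called 3 genes and limma with quality weights 430 in the same test. The 7 genes that passed in females had male log2 fold changes between -0.17 (Pcdh8) and 0.06 (Mdga1), and their sex differences had adjusted p-values from 0.259 to 0.53 by edgeR. Pak6 averaged 96.7 ± 9.56 CPM in male 5xCHI SB (SD, n = 8) and 103 ± 6.76 CPM in male sham vehicle cortex (n = 5), a log2 fold change of -0.09 ± 0.085. By edgeR, a female-only difference was thus not shown for any of them. Whether any of the 7 was among the genes called by DESeq2 or limma was not examined.

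The genes of smallest p for this sex difference were Etv6, Tmem198 and Cdkn1a, with female minus male values of 0.62 ± 0.14, 0.55 ± 0.12 and 0.70 ± 0.16 (log2, SE, adjusted p = 0.200 by edgeR for each), and Nell1, Dcdc2a and Sephs1, with -0.60 ± 0.15, -0.66 ± 0.17 and -0.32 ± 0.084 (adjusted p = 0.259 for each). Cdkn1a, which encodes the cell-cycle inhibitor p21, averaged 28.9 ± 10.1 CPM in female 5xCHI SB and 26.0 ± 6.64 CPM in female sham vehicle cortex, and 17.8 ± 4.26 CPM in male 5xCHI SB and 27.0 ± 5.63 CPM in male sham vehicle cortex.

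For the immediate early genes, male estimates were below 0 for all 14 (median -0.40), 8 of them at an unadjusted p under 0.05. Of all 9636 genes, 560 had such a p in the male contrast, in either direction. In females Klf10 was also below 0 (-0.12), Ier5 was at 0.01 ± 0.12, and 2 of 14 had an unadjusted p under 0.05. The female minus male difference was above 0 for all 14, with a median of 0.63, and 10 of 14 had an unadjusted p under 0.05 against 8.84% of all genes. None passed after adjustment (smallest adjusted p 0.259). The 14 genes were measured in the same libraries and are not separate observations, and male libraries were not left out in turn. For Egr4 the difference was 1.47 ± 0.35 (SE, adjusted p = 0.259), and in males it measured 10.5, 19.0 and 24.3 CPM in 5xCHI SB and 13.6, 27.2 and 56.9 CPM in sham vehicle libraries (lowest, median, highest). Egr1 differed by 0.81 ± 0.23 (adjusted p = 0.360), with 211, 322 and 444 CPM in male 5xCHI SB and 296, 544 and 756 CPM in male sham vehicle libraries. Fos differed by 1.08 ± 0.51 and Nr4a1 by 0.95 ± 0.40 (adjusted p = 0.53 and 0.49 by edgeR). Among the 24 activity-induced effectors the female minus male difference was above 0 for 20, with a median of 0.28, and 10 had an unadjusted p under 0.05. Their female median was 0.01. In males the median was -0.21, with 20 of 24 below 0 and 11 of them at an unadjusted p under 0.05. The 2 sexes came from separate cohorts, so sex and cohort cannot be told apart here.

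**Figure D5:**
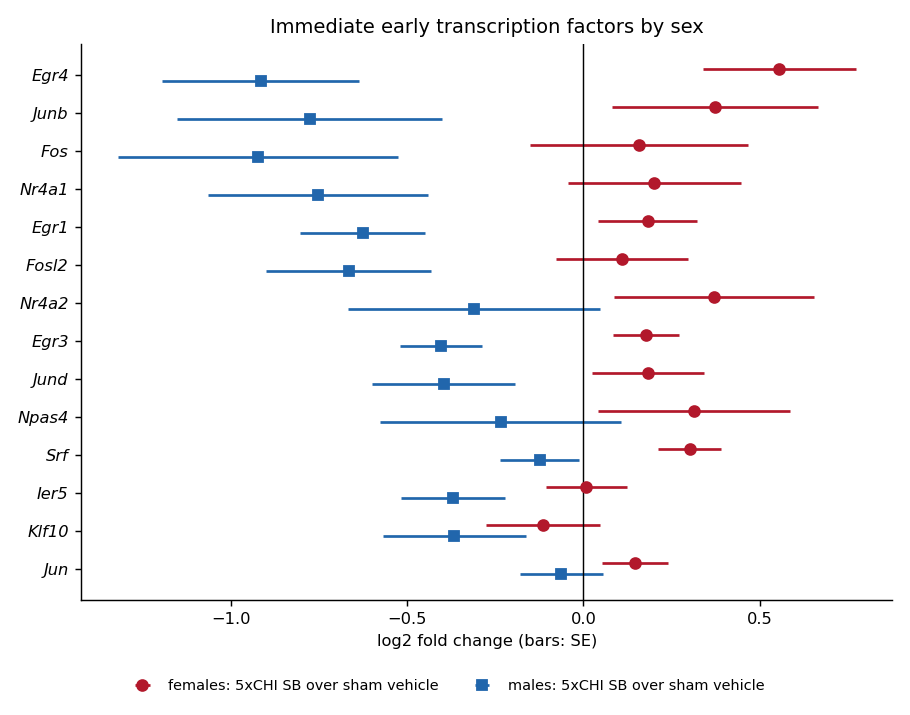
Log2 fold change with its SE of 14 immediate early transcription factors in 5xCHI SB over sham vehicle cortex, for females (red circles) and males (blue squares), ordered by the female minus male difference. All 14 male values lie below 0 and 13 of 14 female values above it.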

How the data were processed

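Counts per gene were deposited by the authors as 1 table of 9636 genes by 58 libraries and used as deposited, without columns left over. Per the labels, a Qiagen RNeasy kit was used for extraction, followed by poly(A) selection and a strand-preserving NEBNext Ultra II library kit. The submitters' processing notes name STAR, featureCounts, DESeq2 and GRCm39/mm39. Their versions, the annotation, the strand setting of the counting and the rule that dropped genes of low count are not stated there, so reads of overlapping or near-identical genes may have been shared. The test was edgeR 4.0.16 in R 4.3.3 (TMM, robust quasi-likelihood test, filterByExpr, which removed 0 genes). The model held 8 groups of sex by injury by treatment and cohort within sex (14 coefficients, 44 residual degrees of freedom). It was run on simulated data with independent counts, without cohort effects or outlying libraries. That run therefore cannot show how the model handles such features in the real data. P-values are two-sided and were adjusted over 9636 genes at 0.05. The labels treat each library as a separate sample. Where any shared an animal, p-values would measure a partly technical spread. All replicate pairs differed by far more than sampling noise (chi-square over its degrees of freedom at least 13.0). At these depths the spread between animals (biological coefficient of variation 0.123) outweighs counting error. The members and the 39 gene lists, of which 37 had a measured gene, were chosen with earlier results of these data known. Named genes are those that passed, filled to 12 per direction by smallest p, and in each described list the 4 of smallest p, with Gfap added by choice. Some genes under these rules are not reported here by name, and 1 of them was also left out of the oligodendrocyte marker sum. Transcript lengths are the longest GENCODE vM21 transcript, matched by symbol for 99.1% of genes. Upstream sequences come from RefSeq. Alternatives used limma 3.58.1 (voom with quality weights) and DESeq2 1.42.0.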

Additional observations from a re-analysis of the deposited data

Results flagged for a closer look

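In the 9 sham vehicle libraries, single libraries stood far from the others for 13 of 110 genes checked and for 1 of 9 library values, with a gap to the nearest library that passed Dixon's 95% limit (chance alone passes it in about 1 in 20 groups). Sham vehicle replicate 1 was the outlying library for 11 of the 13 genes. It was highest for the oligodendrocyte genes Mobp (3350 CPM, next 1823), Car2 (372, next 189), Bcas1 (757, next 355), Olig1 (187) and Olig2 (54.4, next 32.6), and for the summed oligodendrocyte markers (12833.6 CPM, next 5748). The same library was highest for Dbndd2 (149 CPM, next 104), Fth1 (3227, next 1794), Cst3 (906, next 713), Lamp1 (381, next 300.1) and Cplx3 (35.6, next 25.9), and lowest for Rapgefl1 (121, next 158). Sham vehicle replicate 4 was highest for Enpp2 (2841 CPM, next 420) and Sulf1 (109 CPM, next 22.5).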

How the results depend on the processing

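The count of 7 genes kept within 1.5 times its value with only the 20 or the 35 female libraries, other normalizations, other filters on low counts or the length slope as a term. It was 0 without the cohort term, 0 without libraries over 4 median absolute deviations (sham vehicle replicate 1), 0 without the 4 libraries named above, 106 with DESeq2 and 23 with limma. With the length slope it was 9, but not all of the 7 genes were among them. Cpne4 and Dbndd2 did not pass in that fit (adjusted p = 0.0575 by edgeR for both), whereas Lhx2 did (adjusted p = 0.0301). Leaving out 1 library gave 0 to 33 genes, with 0 without 5xCHI SB replicate 8 or 10 or sham vehicle replicate 1, 4 or 7, 1 without sham vehicle replicate 6, 3 or 4 without 5xCHI SB replicate 11, 3 or 7, 22 without 5xCHI SB replicate 9, and 32 and 33 without sham vehicle replicates 8 and 2. The cause was not tested. The 1710 genes at an unadjusted p under 0.05 became 715 without the 4 libraries and 1334 to 1865 when 1 library was left out. The sex difference had 0 calls in every fit that left out 1 library of the 2 female groups, but 3 with DESeq2 and 430 with limma. Male libraries were not left out in turn, so the dependence on single male libraries was not tested. Dbndd2 and Fnta had the opposite sign in cohort F1 (0.016 and 0.061), the only such cases among 24 named genes and 4 cohorts. Same-numbered libraries of the 2 groups were not paired by number (correlations of their deviations -0.232 to 0.589, 3 of 9 over 0.1, 3 of 9 best with their own number), and with the replicate number as a block the counts were 3 and 1104. Genes with a mean count under 270.1 are not in the table, so low expression is not covered.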
